A study of Mus musculus with 4 samples.

Results

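The integrated stress response and the unfolded protein response were described across 34 genes, of 29190 genes counted in mouse kidney RNA. The genes were taken by symbol from a list, 18 for the ATF4 arm and 16 for the ATF6-XBP1 arm. That list was chosen with earlier results of these data known. The kidneys came from C57 mice, males of 8 weeks, that had been injected with cisplatin at 30 mg/kg or with physiological saline, and each group had 2 libraries. The platinum compound cisplatin forms DNA crosslinks and is toxic to the kidney tubule. In the protocol 18 mice formed 3 groups, and animals were killed 24 h or 48 h after the drug. The labels do not say which of these times the cisplatin libraries represent or whether mice were pooled. All animals carried the same genetic background as far as the labels state, and the design text calls the libraries of a group biological replicates.

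Both responses act on protein synthesis and folding. In the integrated stress response, kinases such as PERK and GCN2 phosphorylate the initiation factor eIF2alpha, which lowers general translation while the transcription factor ATF4 is made, and ATF4 then drives genes of amino acid supply, of feedback and of cell death. In the unfolded protein response, PERK is joined by the endoplasmic reticulum (ER) sensors IRE1alpha and ATF6. IRE1alpha splices Xbp1 mRNA so that it encodes an active transcription factor, ATF6 is released by cleavage, and both raise chaperones and the machinery of ER-associated degradation, which returns misfolded proteins to the cytosol. Tubule cells make large amounts of membrane and secreted protein and are exposed to this kind of stress in kidney injury. Counts per gene show transcript abundance, and neither phosphorylation, ATF6 cleavage nor Xbp1 splicing was measured.

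Library totals ran from 20662475 to 27122403 counts. Levels are given as CPM, which are counts per 1e6 counts of the library after TMM scaling (edgeR's trimmed mean). Fold changes are log2 of the cisplatin level over the saline level and carry a standard error (SE). Calls come from edgeR's quasi-likelihood F test over 17419 genes at a Benjamini-Hochberg adjusted p under 0.05. Of all tested genes 73.6% were called, 37.2% higher and 36.4% lower, and in 86.3% the 2 groups did not overlap, so a call alone says little about a member. The median log2 fold change of all tested genes was 0.04 with TMM and 0.41 with library size alone. Small changes are therefore relative to this scale.

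With TMM, cisplatin kidneys had more transcript of most ATF4 arm genes and less of most genes of the ATF6-XBP1 arm. These are bulk tissue levels, in which fewer cells of a type and less RNA per cell cannot be told apart. In the ATF4 arm 12 of 17 tested members rose (70.6%, against 37.2% of all genes), 2 fell (11.8%, against 36.4%) and the other 3 were not called. The arm's median log2 fold change was 1.24. At least a 2-fold rise was called for 9 of the 17, against 19.2% of all tested genes. In the ATF6-XBP1 arm 6 of 16 rose, which is 37.5% and close to the 37.2% of all genes. The other 10 fell, 62.5% against 36.4%, and the median was -0.38. Of the 34 members 33 passed the filter on low counts, and each of these had at least 16 counts in every library.

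The counts were also taken with other scalings and tests. With library size alone 52.3% of all genes were called higher and 24.2% lower. There 15 rose and 1 fell in the ATF4 arm, and 7 rose and 7 fell in the ATF6-XBP1 arm. The balance of calls in the ATF6-XBP1 arm thus depended on the scaling. With upper-quartile scaling (41.9% of all genes higher, 32.3% lower) the counts were 13 and 2, and 6 and 9. DESeq2 called 9 of the ATF4 arm higher and 2 lower, and 5 of the ATF6-XBP1 arm higher and 10 lower. Of 28482 genes it called 17.9% higher and 19.7% lower. These include genes of low counts that the main filter removed, so the shares cannot be set beside those of the 17419 tested genes. Tested against a 2-fold change with glmTreat, which called 12.4% of all genes higher and 12% lower, 8 of the ATF4 arm were higher and 1 of the ATF6-XBP1 arm, Herpud1, was lower. Without cisplatin replicate 2 (31.4% and 32.8% of all genes) 9 rose and 2 fell in the ATF4 arm, and 5 rose and 10 fell in the ATF6-XBP1 arm. edgeR's exact test (37.3% of all genes higher, 36.2% lower) gave 11 and 2 in the ATF4 arm, and 6 and 9 in the other. Limma-trend on log2 of FPKM plus 0.1 (25.5% and 13.4% of 28436 genes, also without the filter) gave 15 and 1, and 6 and 6. With 1 added in place of 0.1 (25.7% and 13.3%) it gave 14 and 1, and 6 and 6, and with a filter of 1 FPKM in 2 libraries (46.5% and 29.2%) 14 and 1, and 6 and 7.

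**Figure D1:**
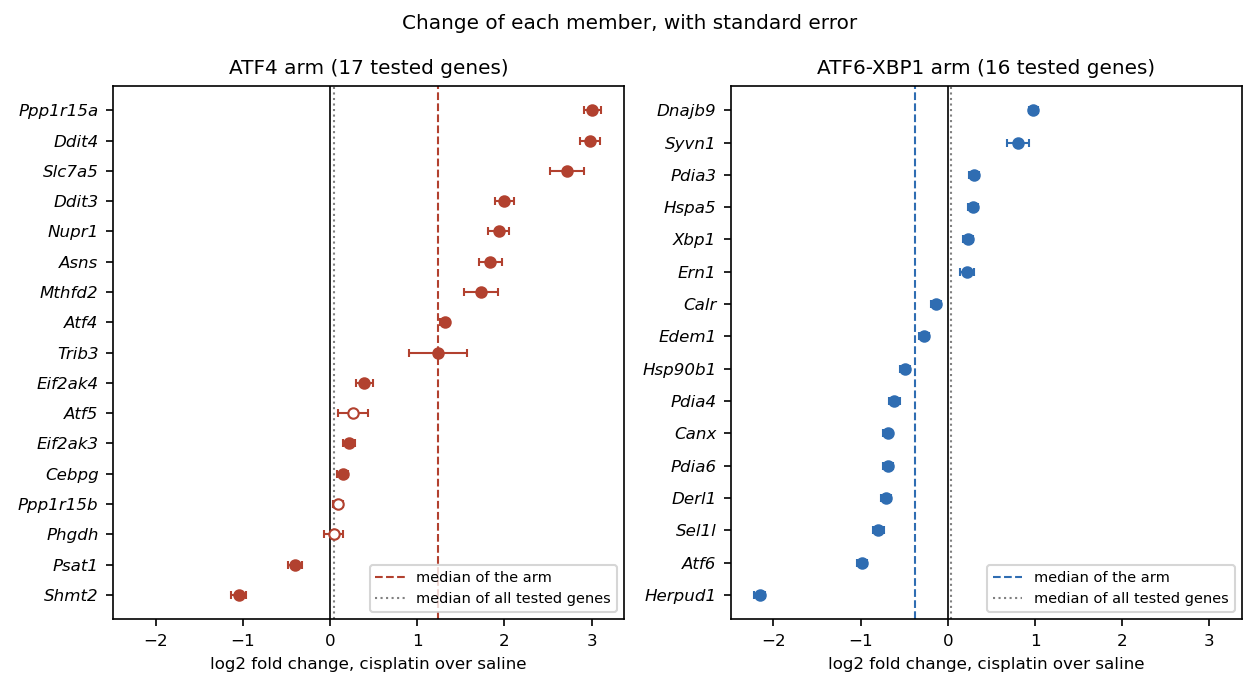
Log2 fold change (horizontal axis, cisplatin over saline) of each tested member with its standard error, the ATF4 arm at left and the ATF6-XBP1 arm at right. Filled points passed edgeR's test and open points did not; dashed lines mark the arm medians of 1.24 and -0.38, and the dotted line the median of all tested genes, 0.04. Ppp1r15a and Ddit4 stand at the top of the ATF4 arm, and Herpud1 stands apart at the bottom of the other.

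The kinases that start the integrated stress response changed little. Eif2ak3 encodes PERK, the ER-resident kinase, and stood at 42.7 and 42.8 CPM in the saline libraries and 49.2 and 50.4 CPM in the cisplatin libraries. Its log2 fold change was 0.22 (SE 0.07; edgeR adjusted p = 0.00664), and it did not pass with DESeq2 (adjusted p = 0.0991) or without cisplatin replicate 2 (edgeR adjusted p = 0.0681). Eif2ak4 encodes GCN2, which senses uncharged tRNA, and rose from 16.9 and 17.7 to 23.9 and 21.8 CPM, a log2 fold change of 0.40 (SE 0.10; edgeR adjusted p = 0.00126). The groups did not overlap for either kinase, as for 86.3% of all tested genes.

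The regulatory subunits of the phosphatase that removes the eIF2alpha phosphate differed from each other. Ppp1r15a (ENSMUSG00000040435.10, chr7:45522916-45526268, minus strand, GRCm38) encodes the stress-induced subunit GADD34. It stood at 11.3 and 10.7 CPM in saline and at 79.1 and 97.3 CPM in cisplatin. This was an 8.03-fold higher mean and a log2 fold change of 3.01 (SE 0.10; edgeR adjusted p = 5.65e-16), at the top of the 33 tested members together with Ddit4. Ppp1r15b encodes CReP, the subunit present without stress, and stood at 150.2 and 149 CPM in saline and 158 and 161 CPM in cisplatin. Its log2 fold change of 0.09 (SE 0.06) did not pass (edgeR adjusted p = 0.157), although the groups did not overlap, and it passed with upper-quartile scaling (adjusted p = 0.00322) and with library size alone. Exons of Ppp1r15b share 640 bases with a gene model on the opposite strand, and the strand setting of the counting is unknown.

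Transcription regulators of the ATF4 arm rose in 5 of 6 cases (83.3%, against 37.2% of all tested genes). Atf4 itself (ENSMUSG00000042406.7, chr15:80255184-80257541, plus strand) had 45.3 and 47.6 CPM in saline and 118 and 113 CPM in cisplatin. The cisplatin mean was 2.49-fold higher (log2 fold change 1.31, SE 0.06; edgeR adjusted p = 5.12e-14). Ddit3 (ENSMUSG00000025408.13, chr10:127290774-127296288, plus strand) encodes CHOP, a factor linked to cell death under lasting stress. It stood at 7.52 and 7.38 CPM in saline and at 27.8 and 31.7 CPM in cisplatin, a 3.99-fold higher mean (edgeR adjusted p = 2.79e-12). Mars, on the opposite strand, shares 68 exon bases with Ddit3. Mars had 722 to 1113 counts per library, and reads of the shared stretch cannot be told apart if strand was ignored.

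Nupr1, a small stress-induced chromatin protein gene, stood at 6.06 and 7.38 CPM in saline and at 24.5 and 27.4 CPM in cisplatin, a 3.86-fold higher mean. Trib3, whose pseudokinase product restrains AKT and ATF4 signalling, was scarce, with 16 and 23 counts in saline and 39 and 68 in cisplatin. Its log2 fold change of 1.24 (SE 0.33; edgeR adjusted p = 0.00263) rested on cisplatin replicate 2, since without that library it was 0.85 and did not pass (edgeR adjusted p = 0.112). With DESeq2 it was at an adjusted p of 0.0504. Cebpg, a dimer partner of ATF4, stood at 56.1 and 57.9 CPM in saline and 62.4 and 63.7 CPM in cisplatin (log2 fold change 0.15, SE 0.06). It passed by a small margin (edgeR adjusted p = 0.0371) and was lost, among others, with RLE scaling (adjusted p = 0.0637), DESeq2 and each library left out. Atf5 lay at 5.14 and 4.51 CPM in saline and 5.31 and 6.17 CPM in cisplatin and did not pass (edgeR adjusted p = 0.184), but passed with library size alone, and its exons share 82 bases with genes on the opposite strand.

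Enzymes that make serine, glycine and asparagine, usual targets of ATF4, split within their own pathway. Asns, asparagine synthetase (ENSMUSG00000029752.10, chr6:7675169-7693254, minus strand), stood at 4.44 and 4.30 CPM in saline and 15.8 and 15.4 CPM in cisplatin, a 3.57-fold higher mean. Mthfd2, a mitochondrial enzyme of folate-bound carbon units, stood at 2.06 and 2.21 CPM in saline and 7.59 and 6.71 CPM in cisplatin, a 3.35-fold higher mean. Both rose (edgeR adjusted p = 2.1e-10 and 1.22e-07). Shmt2, the mitochondrial serine hydroxymethyltransferase that works just before Mthfd2, went the other way.

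Shmt2 stood at 51.6 and 61.9 CPM in saline and 26.6 and 28.5 CPM in cisplatin, so that the saline mean was 2.06-fold higher (log2 fold change -1.05, SE 0.09; edgeR adjusted p = 1.2e-09). In absolute terms Mthfd2 stayed scarcer than Shmt2, at 2.38 against 8.29 mean FPKM after cisplatin and 0.59 against 14.2 in saline, where FPKM scales by transcript length. The serine synthesis enzymes did not follow Asns. Phgdh, the first enzyme, had 14.3 and 13.0 CPM in saline and 13.7 and 14.3 CPM in cisplatin. Its groups overlapped, and it did not pass with TMM (edgeR adjusted p = 0.739), while with library size alone it did (adjusted p = 0.00228). Psat1, the next enzyme, fell from 44.6 and 44.1 to 32.1 and 34.9 CPM with TMM (log2 fold change -0.40, SE 0.08; edgeR adjusted p = 8.78e-05), and with library size alone it stood at -0.04 and did not pass (adjusted p = 0.709).

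The remaining ATF4 targets included large rises. Ddit4 (ENSMUSG00000020108.3, chr10:59949669-59951834, minus strand), which encodes the mTORC1 inhibitor REDD1, stood at 6.06 and 5.45 CPM in saline and 42.6 and 47.8 CPM in cisplatin. The mean was 7.86-fold higher, with a log2 fold change of 2.98 (SE 0.11; edgeR adjusted p = 4.39e-15). Slc7a5, the large neutral amino acid carrier LAT1, stood at 1.35 and 1.43 CPM in saline and 9.49 and 8.95 CPM in cisplatin, a 6.62-fold higher mean. Fgf21, a secreted hormone known as an ATF4 target in liver, had 0 counts in each library. At 3 counts as the floor this allows up to 0.111 to 0.145 CPM before scaling, by counting error only.

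**Figure D2:**
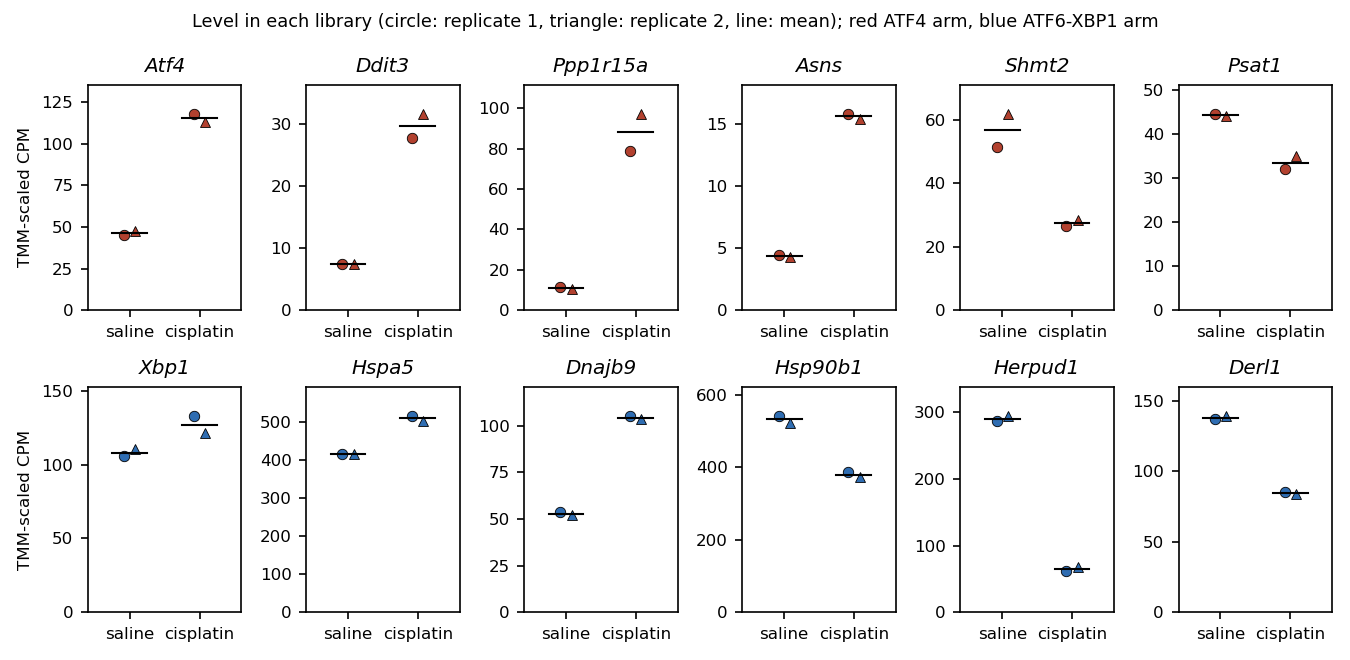
TMM-scaled CPM (vertical axis, from 0) of 12 members in each library of the saline and cisplatin groups; circles are replicate 1, triangles replicate 2 and lines the mean of 2. Red panels belong to the ATF4 arm and blue panels to the ATF6-XBP1 arm. In every panel the groups are separate, as for 86.3% of all tested genes. Ppp1r15a goes from about 11 to between 79.1 and 97.3 CPM, and Herpud1 from 287 and 294 to 62.5 and 67.7 CPM.

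Of the ER sensors and their factor, Atf6 fell and the others rose slightly. Atf6, the cleaved ER transcription factor, stood at 114 and 116 CPM in saline and 57.4 and 59.2 CPM in cisplatin. The saline mean was 1.98-fold higher (log2 fold change -0.98, SE 0.05; edgeR adjusted p = 2.07e-12). Xbp1 rose from 106 and 111 to 133 and 121 CPM, a log2 fold change of 0.23 (SE 0.06; edgeR adjusted p = 0.00206). Ern1, which encodes IRE1alpha, stood at 28.2 and 30.4 CPM in saline and 34.2 CPM in both cisplatin libraries. Its log2 fold change of 0.22 (edgeR adjusted p = 0.0216) did not pass with DESeq2 (adjusted p = 0.175) or without cisplatin replicate 1, cisplatin replicate 2 or saline replicate 1.

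The ER chaperones moved in both directions. Hspa5 (ENSMUSG00000026864.11, chr2:34771970-34777547, plus strand) encodes BiP, the chaperone that holds the sensors inactive and a standard readout of the unfolded protein response. It rose from 416 and 418 to 516 and 504 CPM, a 1.22-fold higher mean (log2 fold change 0.29, SE 0.06; edgeR adjusted p = 9.53e-05). Dnajb9, a BiP co-chaperone known as an XBP1 target, stood at 53.5 and 52.1 CPM in saline and 105 and 104 CPM in cisplatin. Its 1.98-fold higher mean was the largest rise of the ATF6-XBP1 arm (log2 fold change 0.98, SE 0.06; edgeR adjusted p = 3.35e-12).

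The other chaperones were lower with TMM. Hsp90b1, the ER member of the HSP90 family known as GRP94, stood at 541 and 524 CPM in saline and 386 and 373 CPM in cisplatin (log2 fold change -0.49, SE 0.06; edgeR adjusted p = 1.91e-07), and did not pass with library size alone (log2 fold change -0.12). Canx, the membrane-bound lectin chaperone calnexin, fell from 1004 and 1036 to 635 and 629 CPM (log2 fold change -0.69, SE 0.05; edgeR adjusted p = 6.56e-10). Calr, its soluble relative calreticulin, stood at 415 and 393 CPM in saline and 355 and 378 CPM in cisplatin. Its log2 fold change was -0.14 with TMM (edgeR adjusted p = 0.0419) and 0.23 with library size alone (adjusted p = 0.00943), so its direction depended on the scaling.

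The protein disulfide isomerases, which form and rearrange disulfide bonds, split likewise. Pdia3, the partner of calnexin and calreticulin, rose from 278 and 261 to 347 and 317 CPM (log2 fold change 0.30, SE 0.06; edgeR adjusted p = 0.000245). Pdia4 fell from 150 and 155 to 104 and 96.0 CPM (log2 fold change -0.61, SE 0.06), and did not pass with limma-trend on unfiltered FPKM. Pdia6 fell from 179 and 176 to 111 and 109 CPM (log2 fold change -0.69, SE 0.06; edgeR adjusted p = 1.34e-09). Exons of Pdia6 and of Atp6v1c2, on the opposite strand, share 50 bases.

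Among genes of ER-associated degradation 4 of 5 fell (80%, against 36.4% of all tested genes), and Herpud1 fell the most of all 33 tested members. Herpud1 (ENSMUSG00000031770.13, chr8:94386438-94395377, plus strand) encodes a membrane protein that organises the degradation complex and is itself a known target of the unfolded protein response. It stood at 287 and 294 CPM in saline and 62.5 and 67.7 CPM in cisplatin. The saline mean was 4.46-fold higher, with a log2 fold change of -2.16 (SE 0.06; edgeR adjusted p = 1.19e-16), and it was called lower in 16 of 16 alternatives, glmTreat included.

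Sel1l and Syvn1 encode partners in the same ubiquitin ligase complex of the ER membrane, and their transcripts moved apart. Sel1l fell from 136 and 152 to 81.5 and 84.6 CPM (log2 fold change -0.80, SE 0.06; edgeR adjusted p = 5.58e-10). Syvn1, the ligase HRD1, rose from 7.95 and 7.50 to 13.1 and 13.8 CPM (log2 fold change 0.81, SE 0.12; edgeR adjusted p = 8.98e-06). Syvn1 had 147 to 359 counts per library, and Mrpl49, on the opposite strand, shares 91 of its exon bases at 975 to 1175 counts, so its value is uncertain if strand was ignored. Derl1, a channel component, fell from 137 and 139 to 85.1 and 83.9 CPM (log2 fold change -0.71, SE 0.06; edgeR adjusted p = 5.81e-10). Edem1, which directs misfolded glycoproteins to degradation, stood at 149 and 154 CPM in saline and 129 and 123 CPM in cisplatin. It fell with TMM (log2 fold change -0.27, SE 0.06; edgeR adjusted p = 0.000352) and stood at 0.10 with library size alone, where it did not pass (adjusted p = 0.229).

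The promoters are shown because the ATF6-XBP1 arm is commonly defined by the ER stress response element (ERSE), and members that hold it moved in both directions. Windows from 250 bases before to 50 after a RefSeq start (GRCm38.p6) were matched for 30 of the 34 members, and Ppp1r15b, Slc7a5, Atf6 and Derl1 had none. ERSE was searched on both strands as CCAAT and CCACG with 9 bases between. It was found for 6 of 14 genes of the ATF6-XBP1 arm and 0 of 16 of the ATF4 arm. Of all 27025 genes with a window 0.137% held it. Since the arm is commonly defined by this element, its higher share there is no finding about these data. The ERSE sites are printed below in the orientation of CCAAT, with CCAAT and CCACG in capitals. Hspa5 and Syvn1 rose, Canx and Pdia6 fell, Hsp90b1 fell with TMM and did not pass with library size alone, and the sign for Calr depended on the scaling.
Hspa5 (chr2:34772020-34772049, plus strand): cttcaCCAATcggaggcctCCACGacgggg
Syvn1 (chr19:6046527-6046556, plus strand): cgcaaCCAATcggcggtagCCACGggaaca
Calr (chr8:84847069-84847098, plus strand, gene on minus): tatgggCCAATgagggtcgaCCACGcgttg
Canx (chr11:50325794-50325823, minus strand): attgaCCAATcaccacgctCCACGaagaat
Pdia6 (chr12:17266486-17266515, plus strand): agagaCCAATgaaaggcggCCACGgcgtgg
Hsp90b1 distal (chr10:86705632-86705661, minus strand): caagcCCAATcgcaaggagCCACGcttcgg
Hsp90b1 proximal (chr10:86705527-86705556, plus strand, gene on minus): aactcaCCAATcgtgcctcaCCACGcactc

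Herpud1 held the shorter form ERSE-II, searched as ATTGG and CCACG with 1 base between and present in 0.0365% of all windows, from 52 to 42 bases before its start. ATTGG is CCAAT read on the other strand. Herpud1 also held a match to the composite element of ATF4 and C/EBP factors, searched as TGATGNAA on both strands, where N is any base. The 250 bases before the Herpud1 start are given on the plus strand, with both matches in capitals except the base between the parts of ERSE-II, because this was the member that fell most.
Herpud1 (chr8:94386179-94386428, plus strand): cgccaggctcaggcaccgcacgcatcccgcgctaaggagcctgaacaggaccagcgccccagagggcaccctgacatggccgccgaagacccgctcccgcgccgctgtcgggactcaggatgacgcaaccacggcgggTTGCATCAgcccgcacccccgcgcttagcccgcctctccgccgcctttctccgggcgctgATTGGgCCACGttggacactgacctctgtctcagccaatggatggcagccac

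The ATF4 and C/EBP element was found in windows of 4 of 16 ATF4 arm genes, Asns, Nupr1, Fgf21 and Trib3. It was also found for Herpud1 in the other arm, and for 4.51% of all 27025 genes with a window. The match of Trib3 lies after its RefSeq start. Asns and Nupr1 rose more than 3-fold, Fgf21 had 0 counts and Herpud1 fell, so members with this match also differed. The sites upstream of the RefSeq start are printed with the match in capitals, in the orientation of TGATGNAA. Beside them stands the palindromic cyclic AMP element TGACGTCA of Ppp1r15a, a motif held by 1.79% of all windows. GENCODE spans can begin further out, and the printed sites of Asns, Nupr1 and Hspa5 lie inside the GENCODE spans of these genes. The XBP1 element, searched as TGACGTGG on both strands and present in 0.676% of all windows, was in no window of these members. A match is a run of letters in the window and not a measured binding site.
Asns (chr6:7693214-7693243, minus strand): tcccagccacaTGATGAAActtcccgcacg
Nupr1 (chr7:126625562-126625591, plus strand, gene on minus): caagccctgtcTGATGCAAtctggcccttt
Fgf21 (chr7:45615611-45615640, plus strand, gene on minus): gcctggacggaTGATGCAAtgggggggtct
Herpud1 (chr8:94386306-94386335, minus strand, gene on plus): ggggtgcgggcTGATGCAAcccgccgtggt
Ppp1r15a (chr7:45526269-45526298, minus strand): gagaccccgcctctccggTGACGTCAgcac

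Per transcript length the arms stood at different levels. In saline the 11 highest of the 33 members by mean FPKM all belonged to the ATF6-XBP1 arm, from Canx at 137 ± 12.4 FPKM (SD, n = 2) down to Dnajb9 at 16.3 ± 0.799 FPKM. The highest of the ATF4 arm was Atf4 itself, at 15.5 ± 1.6 FPKM, and the lowest was Slc7a5, at 0.23 ± 0.0283 FPKM. The median level over members was 4.14 FPKM in the ATF4 arm and 30.7 FPKM in the ATF6-XBP1 arm.

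After cisplatin the order changed in places. Herpud1 went from rank 4 to rank 12 as its mean went from 85.5 to 23.1 FPKM. Atf4 went from rank 12 to rank 6, at 46.5 ± 1.88 FPKM, Ppp1r15a from rank 24 to rank 14 and Ddit3 from rank 21 to rank 11. The ATF4 arm median was then 7.91 FPKM and that of the ATF6-XBP1 arm 31.5 FPKM. FPKM values were used as deposited, without TMM scaling, so changes between the groups can differ from those with TMM. On this scale the ATF6-XBP1 arm median was not lower than the 30.7 FPKM in saline. Calr, lower with TMM, went from 106 to 116 FPKM. Calr had the highest level after cisplatin, at 116 ± 3.85 FPKM, and Canx was next at 102 ± 1.94 FPKM.

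**Figure D3:**
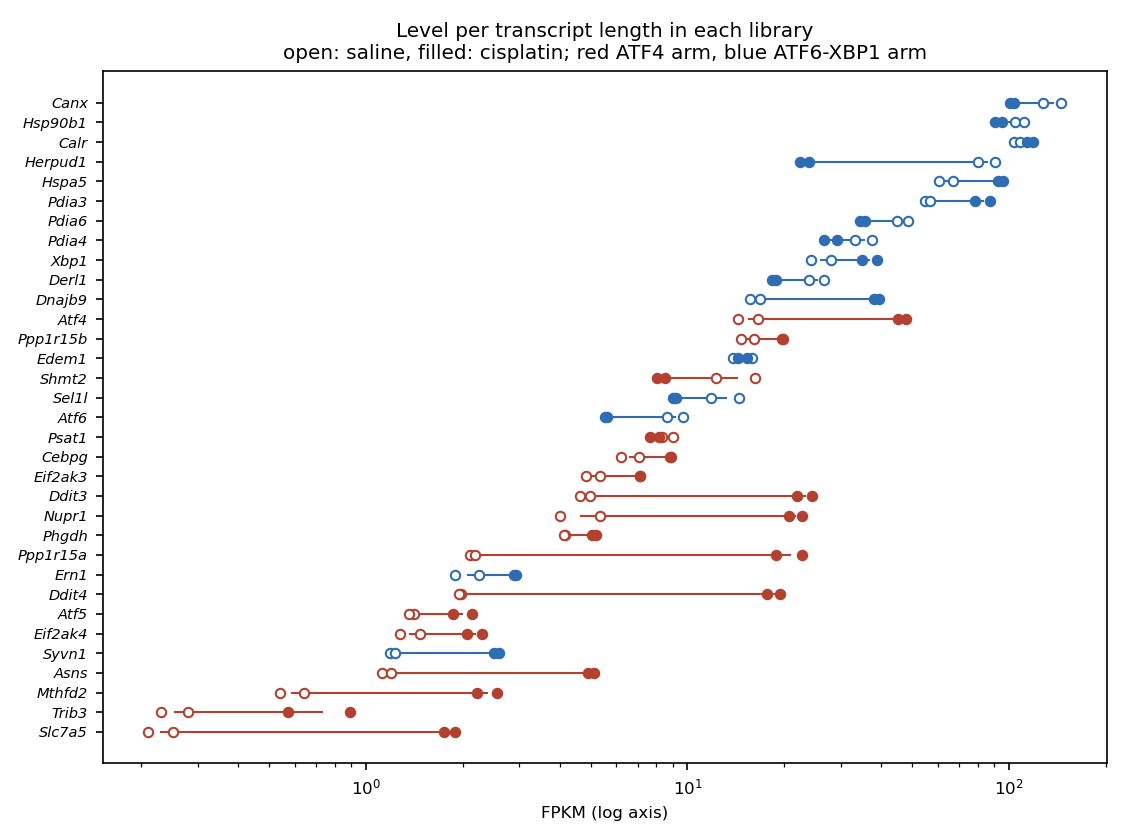
FPKM (horizontal log axis) of the 33 tested members in each library, ordered by the saline mean; open points are saline, filled points cisplatin, and a line joins the group means. Red is the ATF4 arm and blue the ATF6-XBP1 arm. Blue members fill the top 11 places, Herpud1 moves far to the left, and Ppp1r15a, Ddit4 and Ddit3 move far to the right.

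The arms were compared library by library without a test, since the members were a chosen list. Relative to each gene's saline mean, the median log2 level of the ATF4 arm was 0.81 and 1.29 in cisplatin replicates 1 and 2. That of the ATF6-XBP1 arm was -0.35 and -0.41. The 2 saline libraries mirror each other around 0 by construction, since their mean is the reference. Their medians lay within 0.02 of 0 in both arms, while single members lay up to 0.14 away. The difference between the arm medians of log2 fold change was 1.61. It was 1.20 without cisplatin replicate 2. Trib3 is the middle member of the ATF4 arm, so its value is the arm's median.

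Scaling moved the arms together with all genes. With library size alone the arm medians were 1.60 and -0.01, against 0.41 for all tested genes. Measured from the median of all genes, the ATF4 arm stood at 1.19 with TMM and 1.19 with library size alone, and the ATF6-XBP1 arm at -0.42 and -0.42. With limma-trend on log2 of FPKM plus 1, which understates changes of low genes, these distances were 0.42 and -0.15.

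**Figure D4:**
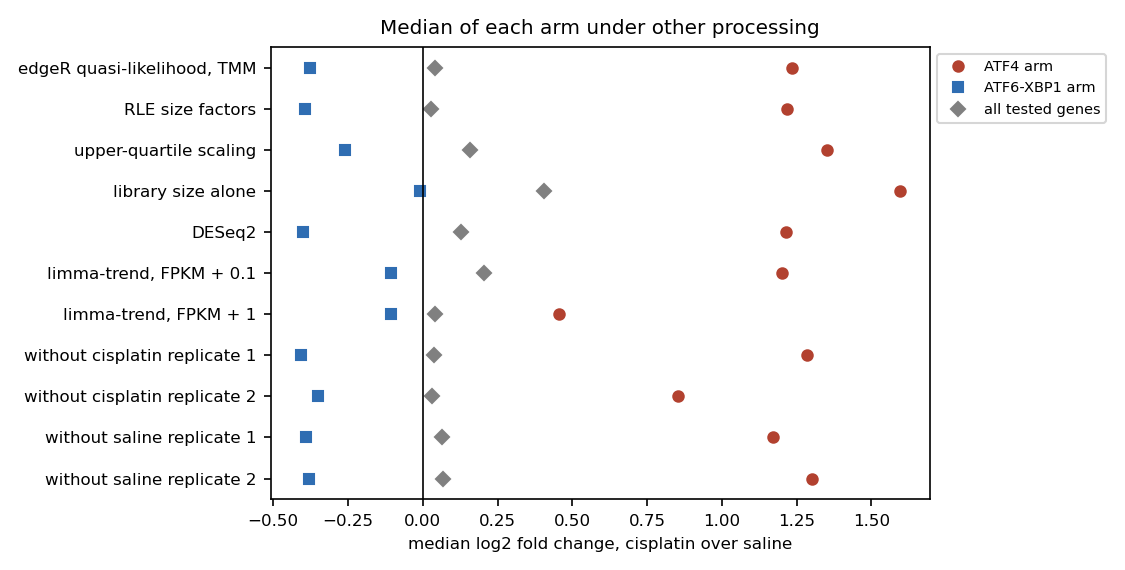
Median log2 fold change (horizontal axis, cisplatin over saline) of the ATF4 arm, the ATF6-XBP1 arm and all tested genes, one row per way of processing. In each row shown the ATF4 arm lies to the right of all genes and the ATF6-XBP1 arm to the left; with library size alone all 3 medians lie further right, at 1.60, -0.01 and 0.41.

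Further genes of both pathways were counted from lists of pathway genes, also chosen with earlier results of these data known. Of 47 tested further genes of the integrated stress response 27 rose and 11 fell, which is 57.4% and 23.4% against 37.2% and 36.4% of all tested genes, with a median of 0.41 against 0.04. Those encoding eIF2 kinases, eIF2 and its exchange factor eIF2B, counted together with Nck1 and Dnajc3, rose in 7 of 11 cases (63.6%). The kinase gene Eif2ak1 and Dnajc3 were the 2 that fell (18.2%). Among them Dnajc3, an inhibitor of PERK, fell from 294 and 290 to 118 and 119 CPM. Of the 36 further ATF4 targets 20 rose (55.6%, against 37.2% of all tested genes) and 9 fell (25%, against 36.4%). The largest rises were those of Atf3, a transcription repressor (log2 fold change 5.44, SE 0.12), the stress cytokine Gdf15 (4.71, SE 0.14), the death receptor Tnfrsf10b (4.19, SE 0.12) and Sesn2, an mTORC1 inhibitor (2.78, SE 0.07). These 4 genes are also known as targets of p53.

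Other ATF4 targets fell. Cth, which makes cysteine from cystathionine, fell from 224 and 223 to 75.6 and 74.8 CPM. Vldlr, a lipoprotein receptor, had a log2 fold change of -1.67 (SE 0.06), and Gpt2, the mitochondrial alanine transaminase, of -1.43 (SE 0.07). With library size alone, which called 52.3% of all genes higher and 24.2% lower, 36 of the 47 rose and 10 fell.

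Of 54 tested further genes of the unfolded protein response 18 rose and 24 fell, with a median of -0.11. These are 33.3% and 44.4%, near the 37.2% and 36.4% of all tested genes. In the ER folding group 3 of 17 rose (17.6%) and 9 fell (52.9%). In the group of degradation and translocation 9 of 25 rose (36%, close to the 37.2% of all genes) and 12 fell (48%, against 36.4%). Among transducers 6 of 12 rose (50%) and 3 fell (25%). With library size alone the whole list turned to 32 higher and 16 lower, where 52.3% and 24.2% of all genes were called, with a median of 0.26 against 0.41 for all genes, so its balance depended on the scaling. The largest rises among genes of at least 5 CPM were Ube2g2, a conjugating enzyme of ER-associated degradation (1.12, SE 0.09), Casp12, an ER-linked caspase gene (0.93, SE 0.18), Traf2, an IRE1alpha adaptor (0.82, SE 0.13) and Sdf2l1, a BiP cofactor (0.75, SE 0.15), all as log2 fold changes. The largest falls were Tmbim6, an ER membrane protein that restrains cell death, from 1382 and 1355 to 529 and 553 CPM, the translocon gene Sec62 (-1.29, SE 0.06), the ER prolyl isomerase Fkbp2 (-1.20, SE 0.09) and Pdia5 (-1.17, SE 0.14).

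Cell type markers moved in the same libraries. All 18 proximal tubule markers fell, against 36.4% of all tested genes. Their summed level was 62583 and 64271 CPM in saline against 21446 and 22137 CPM in cisplatin. The lowest log2 fold change of these markers was -4.71 and the highest -0.77. Of 16 markers of the thick limb, distal tubule and collecting duct 14 fell (87.5%) and 2 rose (12.5%, against 37.2% of all tested genes). They summed to 8192 and 8270 CPM in saline and 2534 and 2612 CPM in cisplatin.

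Markers of immune cells were higher in sum. Among 15 markers of macrophages and monocytes 12 rose (80%, against 37.2% of all tested genes) and Csf1r fell. Their summed levels were 134 and 140 CPM in saline and 344 and 363 CPM in cisplatin. Of 12 neutrophil markers 11 were counted, and the 7 that passed the filter rose. The 11 summed to 3.32 and 5.36 CPM in saline and 34.6 and 35.7 CPM in cisplatin. Ly6g, Mpo, Camp and Ngp had 0 counts in both saline libraries. Markers this low in saline can pass the filter through the cisplatin libraries alone, so this number of rises says little. Of 14 plasma and B cell markers, chosen because plasma cells hold much Xbp1, 9 were tested. Of these 5 rose (55.6%), and 2, Prdm1 and Ighm, fell (22.2%, against 36.4% of all tested genes). The limit of the filter named for the neutrophil markers can apply here too, since only 9 of the 14 passed it. The 14 summed to 27.7 and 28.3 CPM in saline and 75.9 and 77.2 CPM in cisplatin. The part of these cell types in the changes of either arm was not tested.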

How the data were processed

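The authors deposited a table of raw read counts per gene and a table of FPKM values, with 1 column per library. The mouse build GRCm38 and the programs TopHat2, bcl2fastq and edgeR appear in the submitters' processing notes. Libraries were directional, from RNA without its ribosomal part, and read as pairs of 150 nt, per the labels' protocols. How reads were counted, with or without strand, and on which gene models is not stated in these sources.

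Counts were filtered with filterByExpr, scaled by TMM and tested over all genes with the quasi-likelihood F test of edgeR 4.0.16 (R 4.3.3), Benjamini-Hochberg adjusted, with 2 residual degrees of freedom. SEs came from the fold change and its F statistic. With 2 libraries per group the p-values describe the spread between libraries. The test moderates the spread of each gene toward that of all tested genes, so p-values and SEs also rest on other genes. The common biological coefficient of variation was 6.42%. FPKM values compared levels between genes. Alternatives were RLE, upper-quartile and library-size scaling, other filters, DESeq2 1.42.0, edgeR's exact test, glmTreat against a 2-fold change, limma-trend (limma 3.58.1) on FPKM, the replicate number as a block, and leaving out 1 library at a time. In simulated counts for this comparison, over 17419 genes, the test recovered 36 of 50 genes changed 1.5-fold and 47 of 50 changed 4-fold. There 17219 genes were unchanged, and 8 of them were called. In the data 73.6% of genes were called, so the simulation cannot check the scaling or the calls under so broad a change.

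The members and gene lists were chosen with earlier results of these data known. All members are named. Of the further pathway genes the text names, per list, the 4 largest rises and 4 largest falls that passed the test, averaged 5 CPM or more, and had separate groups. Gene spans are from GENCODE M21 (GRCm38), and promoter sequences are from RefSeq on GRCm38.p6. Figures were drawn with matplotlib 3.10.9.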

Additional observations from a re-analysis of the deposited data

How the results depend on the processing

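With only 2 libraries per group, single calls of small changes are the least secure. Counts of calls that moved by over 1.5 times were as follows. With library size alone 4207 of all tested genes fell, 1 gene of the ATF4 arm fell, and 32 further unfolded protein response genes rose. Testing against a 2-fold change (glmTreat) left 2156 higher and 2089 lower among all genes. It left 10 higher and 4 lower among further integrated stress response genes, and 1 higher and 3 lower among further unfolded protein response genes. In the ATF6-XBP1 arm it left 1 lower and 0 higher, against 9 lower and 6 higher with edgeR's exact test. In the ATF4 arm it left 0 lower, against 2 lower with the exact test. Both values of 0 with glmTreat were also 0 at an unadjusted p under 0.05. Limma-trend on FPKM gave 3804, 3784 and 3815 falling genes in all at a pseudocount of 0.1, of 1, and of 1 with a filter of 1 FPKM in 2 libraries, and 1 falling in the ATF4 arm each time. At the pseudocounts of 0.1 and 1 without a filter 6 fell in the ATF6-XBP1 arm and 15 among further unfolded protein response genes. At 0.1, 7 further integrated stress response genes fell. The difference between arm medians was 1.31, 0.56 and 0.86 in these 3 fits, and 1.20 to 1.69 with each library left out. Calr had log2 fold changes of 0.23 with library size alone and of 0.13 in the 3 FPKM fits, Edem1 of 0.10 and of 0.0022, 0.002 and 0.002, and Phgdh of -0.034 without saline replicate 2. Over genes, the deviations of same-numbered libraries of the groups were not correlated (r = -0.02). With 2 libraries per group, this cannot show whether the number marks a pairing. With a replicate block 6382 of all genes rose and 6271 fell. There 11 genes of the ATF4 arm rose and 2 fell, and 6 of the ATF6-XBP1 arm rose and 9 fell.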
